A study of Mus musculus with 8 samples.

Results

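Intercalated cells are the acid-base regulating cells of the collecting duct and connecting tubule, and the genes described here are 7 that mark their identity. The members were Foxi1, Tfcp2l1, Slc4a1, Slc4a9, Slc26a4, Rhcg and Rhbg, taken by name, and every probe set to which the platform annotation gives 1 of these symbols alone was used. This gave 11 of 45101 probe sets, and 7 of 18194 named genes. In build GRCm38.p6 Foxi1 lies at chr11:34204341-34208089, Tfcp2l1 at chr1:118627923-118685168, Slc4a1 at chr11:102348820-102365281, Slc26a4 at chr12:31519814-31560055, Rhcg at chr7:79593363-79617657 and Rhbg at chr3:88242874-88254739, and Slc4a9 lies on chromosome 18. Signals were compared between whole kidneys of 4 RNA pools on Affymetrix mouse genome arrays, to see how these genes behaved with and without nephrons and between the 2 stages. The E18.5 Lim1 conditional mutant pool held kidneys of 9 embryos, the E18.5 control pool 14, the E14.5 mutant pool 17 and the E14.5 control pool 23. Mutant embryos carried a floxed and a lacZ (null) allele of Lim1, which is also called Lhx1, and control embryos a floxed and a wild-type allele. All embryos of both genotypes also carried the Rarb2-Cre transgene, so the control kidneys were not free of Cre or of the floxed allele. Cre of this transgene is made in the metanephric mesenchyme, the tissue that gives rise to nephrons, and not in the ureteric bud, which gives rise to the collecting duct. The ureteric bud of mutant embryos therefore still had 1 floxed allele that could work beside the null allele. Founding strains were C57BL/6J, 129/SvEv and SJL/J.

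Each pool was measured on 2 arrays made from separate target preparations of 1 RNA, so the arrays show technical spread only, there was 1 biological replicate for each condition, and no p-value was computed between 2 pools. The error of each ratio is given as its range over the 4 possible pairings of arrays. The array medians lay between 225 and 243, and duplicate arrays differed by a median fold of 1.16 in the E18.5 mutant pool, against 1.08 to 1.11 in the other 3 pools. The targeted gene was read by 2 Lhx1 probe sets that went opposite ways, with log2 ratios of -0.20 and 0.21 for E18.5 mutant over E18.5 control, and 0.21 and -0.30 for E14.5 mutant over E14.5 control. Whether their probes lie in the deleted part was not known, so they do not check the labels. A gene counted as higher or lower when the ratio of the pool means was at least 2, exceeded the fold between duplicates of either pool, gave a product with the mean signal of the higher pool above 100, and had a minimum signal on both arrays of that pool. This minimum was the 40th percentile of each array, which lay between 177 and 193. These are criteria of size and not a statistical test.

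Intercalated cells come in types that secrete acid or base. The type A cell pumps protons into the urine with a vacuolar ATPase and returns bicarbonate to the blood through the exchanger AE1, and the type B cell secretes bicarbonate into the urine through pendrin. Both types depend on the forkhead transcription factor Foxi1. Ammonia, which carries acid out of the body, crosses these cells through the Rh glycoproteins Rhbg and Rhcg, which are also found in neighbouring cells of the connecting tubule and collecting duct.

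In the E18.5 mutant kidney 3 of the 7 genes were lower than in the E18.5 control kidney by the criteria, Foxi1, Rhbg and Tfcp2l1, against 2.23% of all named genes. None of the 7 was higher, against 0.165% of all named genes. The median log2 ratio of the members was -0.66, and that of all named genes was 0.03. For 6 of the 7 genes the mutant arrays both lay below both control arrays, against 21.1% of named genes. The exception was Slc4a1, whose arrays overlapped. Fewer intercalated cells and less RNA per cell cannot be told apart in RNA of whole kidneys. The part of other cells, such as the neighbouring cells that also carry Rhbg and Rhcg, was not tested.

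**Figure D1:**
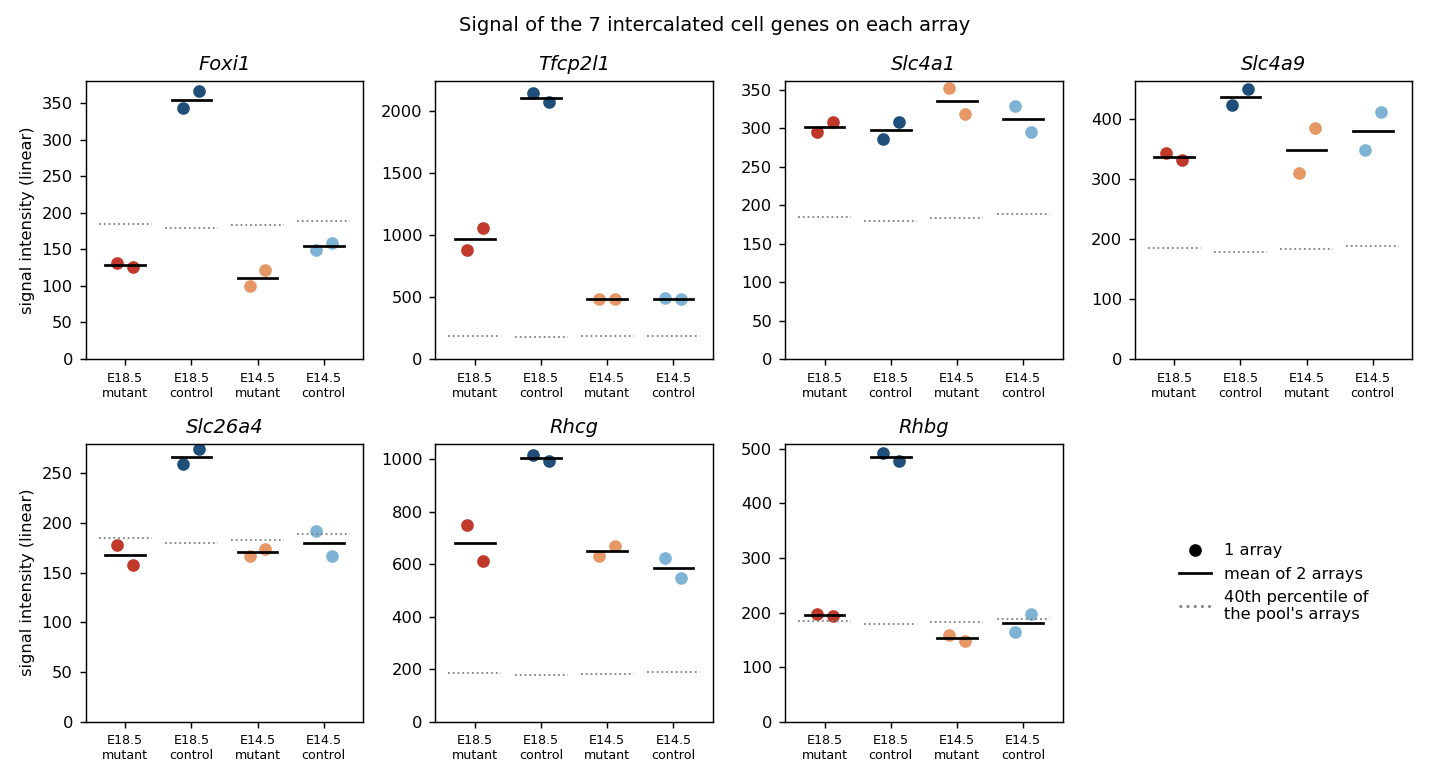
Signal intensity on a linear axis for each of the 7 genes, read by its brightest probe set, on the 2 arrays of each pool (points), with the pool mean (bar) and the mean 40th percentile of the arrays of each pool (dotted line). Foxi1, Tfcp2l1 and Rhbg stood highest in the E18.5 control pool, whereas the 4 pools of Slc4a1 lay close together.

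Foxi1, the transcription factor without which mice lack intercalated cells, had a signal of 132 and 126 on the E18.5 mutant arrays, against 343 and 367 on the E18.5 control arrays. At E14.5 it had 99.7 and 122 on the mutant arrays, against 150 and 159 on the control arrays. The E18.5 control pool was thus the only 1 in which Foxi1 reached the minimum signal, and the 3 other pools lay below it on every array. Its E18.5 mutant over E18.5 control log2 ratio was -1.46, with a range from -1.55 to -1.38, which is a fold of 2.76 lower in the mutant kidney. Since the mutant signal was below the minimum, the fold is uncertain, and with the mutant pool held at that minimum Foxi1 was at least 1.92-fold lower.

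Tfcp2l1, a transcription factor of the CP2 family that in the mouse is needed for the normal pattern of intercalated and principal cells in the collecting duct, had the widest spread between pools of the 7 genes. Its brightest probe set read 877 and 1052 on the E18.5 mutant arrays, against 2139 and 2069 on the E18.5 control arrays. On the E14.5 mutant arrays it read 484 and 483, against 491 and 484 on the E14.5 control arrays. The E18.5 mutant pool lay between the E18.5 control pool and both E14.5 pools, with no overlap, and the E14.5 pools overlapped. The log2 ratio of E18.5 mutant over E18.5 control was -1.13, with a range from -1.29 to -0.98, a fold of 2.18 lower. The 2 other probe sets of Tfcp2l1 were below the minimum signal on all 8 arrays, with E18.5 log2 ratios of -0.24 and -0.32.

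The transcription start regions of both regulators, and of Slc26a4, are shown because they hold a TATA-type element at like positions. Of the 7 members 4 had an entry among the RefSeq promoters of build GRCm38.p6, Foxi1, Tfcp2l1, Slc26a4 and Rhcg. The 250 bases before the start are given in the direction of the gene for Foxi1 (chr11:34208090-34208339, minus strand), Tfcp2l1 (chr1:118627695-118627944, plus strand) and Slc26a4 (chr12:31559985-31560234, minus strand). The capitals mark TATAA.
Foxi1: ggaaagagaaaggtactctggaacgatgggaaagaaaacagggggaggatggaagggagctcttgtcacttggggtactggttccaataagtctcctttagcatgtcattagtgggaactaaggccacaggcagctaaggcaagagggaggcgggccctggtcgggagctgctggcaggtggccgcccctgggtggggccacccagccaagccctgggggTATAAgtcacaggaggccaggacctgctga
Tfcp2l1: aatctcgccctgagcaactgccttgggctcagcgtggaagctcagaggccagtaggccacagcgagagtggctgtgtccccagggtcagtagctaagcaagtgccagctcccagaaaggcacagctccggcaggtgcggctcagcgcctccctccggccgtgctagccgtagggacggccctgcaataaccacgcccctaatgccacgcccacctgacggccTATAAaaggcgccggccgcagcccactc
Slc26a4: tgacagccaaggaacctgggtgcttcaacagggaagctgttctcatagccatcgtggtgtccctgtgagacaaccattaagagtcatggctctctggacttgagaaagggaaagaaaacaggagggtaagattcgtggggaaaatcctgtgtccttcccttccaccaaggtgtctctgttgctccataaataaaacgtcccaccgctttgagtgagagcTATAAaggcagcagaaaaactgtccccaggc
TATAA began 30 bases before the start of the promoter table in Foxi1, 28 in Tfcp2l1 and 31 in Slc26a4. This start is also the upstream end of the annotated gene for Foxi1, and lies 22 bases inside the annotated gene for Tfcp2l1 and 71 bases inside it for Slc26a4, so that TATAA of Slc26a4 is within the gene bounds given above. Searched on both strands, as TATAA or TTATA, it was found within 45 bases of the start in 5.88% of 32851 promoters. Among the 4 members searched it was found in 3, Rhcg being the exception. This motif and window were chosen after the sequences had been seen. The Tfcp2l1 stretch held 16 CpG, those of Foxi1 and Slc26a4 4 each, and that of Rhcg 12, against a median of 6 over all promoters.

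A forkhead motif (TGTTTAC, both strands) and a paired CP2 motif (CCAG and, after 6 bases of any kind, a second CCAG, both strands) were searched in the same 250 bases. The forkhead motif was in 3.17% of all promoters and the CP2 motif in 2.78%, and neither was in those of the 4 members searched. The forkhead letters were present in the promoter of Atp6v1b1, a vacuolar ATPase subunit of intercalated cells that is described with the other genes of these cells. They start 98 bases before the start and are in capitals (chr6:83742767-83743016, plus strand).
Atp6v1b1: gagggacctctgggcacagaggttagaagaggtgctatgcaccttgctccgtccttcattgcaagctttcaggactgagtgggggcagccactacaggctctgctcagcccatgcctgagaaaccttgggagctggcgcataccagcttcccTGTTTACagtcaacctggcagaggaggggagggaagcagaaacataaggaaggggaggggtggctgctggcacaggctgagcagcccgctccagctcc
Of the 23 other intercalated cell genes 16 had a promoter entry, and the forkhead motif was in 2 of them, Atp6v1b1 and P2ry14, the CP2 motif in 1, Atp6v0a4, and TATAA in 2, Hmx2 and Oxgr1, of which all but Atp6v1b1 were named after the search. A match of letters is a description and no measure of binding.

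The ammonia transporters both stood lower in the E18.5 mutant pool, and Rhbg by the larger fold. Rhbg, the Rh glycoprotein of the basolateral membrane, read 198 and 194 on the E18.5 mutant arrays, against 492 and 478 on the E18.5 control arrays. At E14.5 it read 158 and 147 on the mutant arrays, against 164 and 198 on the control arrays. The E18.5 control pool was again far above the other 3, and the mutant pool at E18.5 lay just above the minimum signal. The log2 ratio of E18.5 mutant over E18.5 control was -1.31, with the narrow range from -1.34 to -1.27, a fold of 2.48 lower in the mutant kidney.

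Rhcg, the Rh glycoprotein that is also found in the apical membrane, read 748 and 611 on the E18.5 mutant arrays, against 1017 and 993 on the E18.5 control arrays. It read 631 and 670 on the E14.5 mutant arrays, against 625 and 549 on the E14.5 control arrays. Mutant and control arrays did not overlap at either stage, but the mutant pool was the lower one at E18.5 and the higher one at E14.5. The E18.5 log2 ratio was -0.56, with a range from -0.73 to -0.41, and at 1.48-fold it did not meet the criterion of a ratio of 2.

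None of the 3 anion exchangers met the criteria between genotypes at either stage. Slc26a4, which encodes pendrin of the type B cell, read 178 and 158 on the E18.5 mutant arrays, against 259 and 274 on the E18.5 control arrays. On the E14.5 mutant arrays it read 167 and 174, against 192 and 167 on the E14.5 control arrays. Both E18.5 control arrays were above the minimum signal, while the other 3 pools lay near or below it and overlapped one another. The log2 ratio of E18.5 mutant over E18.5 control was -0.66, with a range from -0.79 to -0.54, or 1.59-fold lower, which did not meet the criteria. With the mutant pool held at the minimum signal it was at least 1.44-fold lower.

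Slc4a9, which encodes AE4, an exchanger of the basolateral membrane of type B cells, read 344 and 331 on the E18.5 mutant arrays, against 424 and 450 on the E18.5 control arrays. At E14.5 it read 311 and 386 on the mutant arrays, against 350 and 412 on the control arrays. The arrays did not overlap between genotypes at E18.5 and overlapped at E14.5. The E18.5 log2 ratio was -0.37, with a range from -0.44 to -0.30, or 1.29-fold.

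Slc4a1 encodes AE1, the bicarbonate exchanger of type A cells, and from the same gene band 3 of the red cell membrane. It read 295 and 308 on the E18.5 mutant arrays, against 287 and 309 on the E18.5 control arrays, and the pools overlapped. At E14.5 it read 353 and 319 on the mutant arrays, against 329 and 296 on the control arrays. The log2 ratio of E18.5 mutant over E18.5 control was 0.02, with a range from -0.06 to 0.10, and it was below 0 under 4 of 12 alternatives, among them both other scalings of the arrays. The 2 other Slc4a1 probe sets stayed below the minimum signal on all arrays. Their E18.5 mutant over E18.5 control log2 ratios were -0.18 (range -0.27 to -0.09) and -0.12 (range -0.31 to 0.06). Which of the 2 transcripts the probe sets read was not determined. The signals of 21 erythroid genes summed to 6487 and 5599 on the E18.5 mutant arrays, against 6278 and 5667 on the E18.5 control arrays. None of the 21 was higher or lower by the criteria between E18.5 genotypes, against 0.165% and 2.23% of all named genes. Their median log2 ratio was 0.02. The part of red cells in the Slc4a1 signal was not tested.

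**Figure D2:**
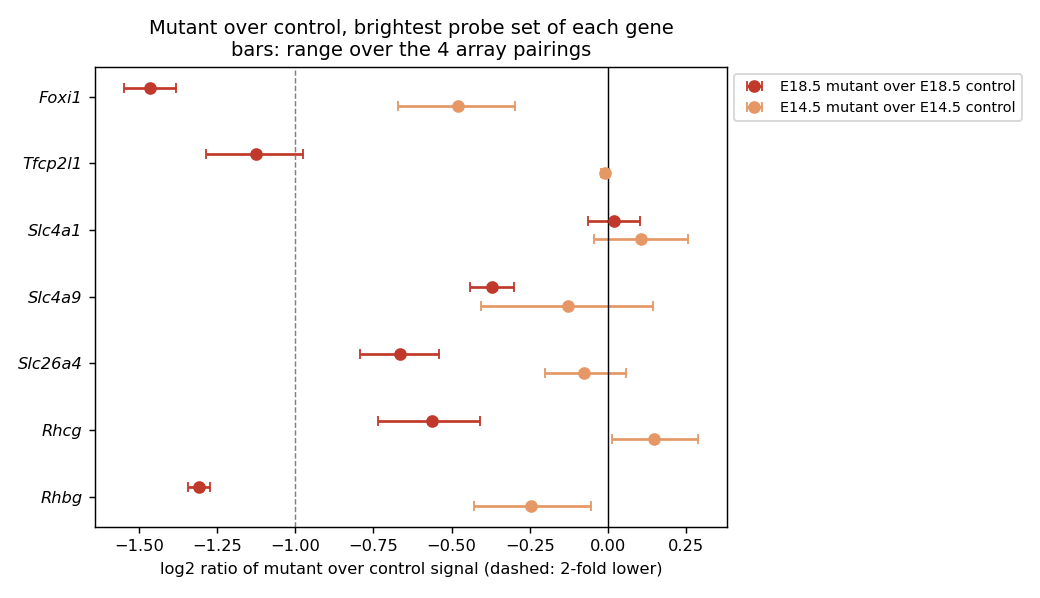
Log2 ratio of mutant over control signal for each gene at E18.5 and at E14.5, with points for the ratio of pool means and bars for the range over the 4 array pairings. At E18.5 Foxi1, Rhbg and Tfcp2l1 lay beyond the dashed line of a 2-fold lower signal, and at E14.5 no gene came near it.

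In the E14.5 mutant kidney none of the 7 genes was higher or lower than in the E14.5 control kidney by the criteria, against 0.0055% of all named genes higher and 0.121% lower. The median log2 ratio of the members was -0.08, and that of all named genes was 0.01. Foxi1 had a log2 ratio of -0.48 (range -0.67 to -0.30) and Rhbg one of -0.25 (range -0.43 to -0.05), so that mutant arrays lay below control arrays for 2 of the 7, against 15.8% of named genes. Both of these genes were below the minimum signal on at least 1 array of each E14.5 pool. Rhcg lay above on both mutant arrays, with a log2 ratio of 0.15 (range 0.01 to 0.29), as did 21.8% of named genes. The arrays of the other 4 genes overlapped between the E14.5 pools.

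Between stages in control kidneys, 3 of the 7 genes met the criteria as higher at the later stage, against 4.75% of all named genes, and none as lower, against 2.94%. They were again Foxi1, Rhbg and Tfcp2l1, and the comparison shares the E18.5 control pool with the comparison of genotypes. Tfcp2l1 was 4.32-fold higher at E18.5 (range 4.22 to 4.42), Rhbg 2.68-fold (2.41 to 2.99) and Foxi1 2.30-fold (2.16 to 2.45). The E14.5 means of Foxi1 and Rhbg were below the minimum signal, and held at that minimum they were at least 1.88-fold and 2.57-fold higher at E18.5. Rhcg was 1.71-fold higher, Slc26a4 1.48-fold and Slc4a9 1.15-fold, which did not meet the criteria. The E18.5 control arrays were above the E14.5 control arrays for 6 of the 7 genes, as for 31.9% of named genes, and below them for none, as for 30.4% of named genes. Slc4a1 had a ratio of 0.952 with overlapping arrays. With 50 units added to each signal Foxi1 no longer met the criteria, and 2 genes did. The median log2 ratio of the members was 0.78, and that of all named genes was -0.01.

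Between stages in mutant kidneys none of the 7 genes met the criteria in either direction, against 1.35% of all named genes higher and 1.49% lower. Tfcp2l1 came closest, with a ratio of 1.996 that stayed just below the threshold and a range from 1.81 to 2.18. It passed after quantile normalization and without E18.5 mutant array 1. Rhbg had a ratio of 1.28 (range 1.22 to 1.34) and Foxi1 one of 1.16 (1.03 to 1.32), and for these 3 genes the E18.5 mutant arrays lay above the E14.5 mutant arrays, as for 27.8% of named genes. Slc4a1 was the 1 gene with both E18.5 mutant arrays below, at a ratio of 0.897, as were 24.1% of named genes. The median log2 ratio of the members was 0.06, and that of all named genes was 0.02.

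**Figure D3:**
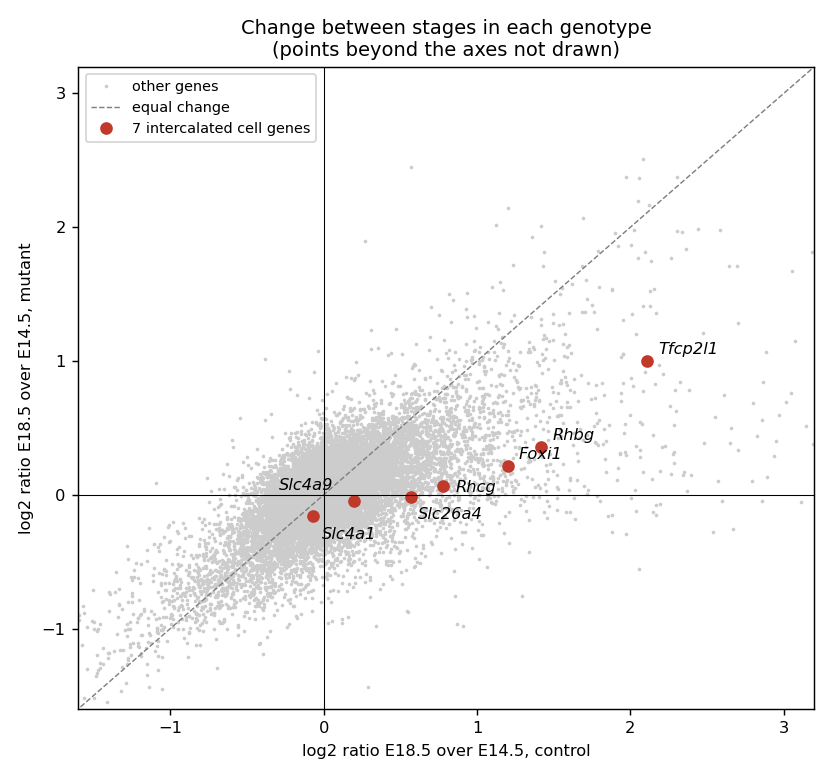
Log2 ratio between the stages, E18.5 to E14.5, in mutant kidneys (vertical axis) against the same ratio in control kidneys (horizontal axis), with the 7 genes in red and other genes that reached the minimum signal in grey. The 7 genes lay below the dashed line of equal change, Slc4a1 and Slc4a9 by differences whose ranges over array pairings reached above 0. The share of other genes below the line was not counted. Foxi1 and Rhbg lay at 0.22 and 0.36 on the vertical axis with 1.20 and 1.42 on the horizontal one.

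The gain in signal between stages was smaller in mutant kidneys than in control kidneys for the 6 genes that gained in control kidneys. In units of signal, the mutant gain minus the control gain equals the genotype difference at E18.5 minus that at the earlier stage. The smaller gain is therefore not separate from the comparison at E18.5, where the same 6 genes were lower on both mutant arrays. The share of all named genes with a smaller gain in mutant kidneys was not counted. Tfcp2l1 gained 481 units of signal in mutant kidneys and 1617 in control kidneys, so that the mutant gain was 29.8% of the control gain. For Rhbg the mutant gain was 14.1% of that in control kidneys. Foxi1 gained 17.9 units in mutant kidneys, below the minimum signal at both stages, and between 6.88 and 28.9 units with 1 array left out, against 200.8 in control kidneys. Rhcg gained 29.2 units in mutant kidneys with overlapping arrays, and between -39.2 and 97.6 units with 1 array left out, the lowest without E18.5 mutant array 1, against 418 in control kidneys. Slc26a4 and Slc4a9 had stage differences of -2.42 and -10.53 units in mutant kidneys, with overlapping arrays, and gained 86.7 and 56.3 units in control kidneys.

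The mutant over control log2 ratio at E18.5 minus that at E14.5 was -1.11 for Tfcp2l1 (range -1.29 to -0.95), -1.06 for Rhbg (-1.29 to -0.85), -0.99 for Foxi1 (-1.25 to -0.71), -0.71 for Rhcg (-1.02 to -0.42) and -0.59 for Slc26a4 (-0.85 to -0.34). For these 5 genes the whole range over pairings was below 0. The share of all named genes with such a range was not counted, so this number has no background to be read against. It was -0.24 for Slc4a9 and -0.09 for Slc4a1, whose ranges reached above 0. The median of the 7 genes was -0.71, and that of all named genes was 0.01. No test of this difference was possible, since the 4 pools leave no residual degree of freedom for it.

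An effect common to both stages or to both genotypes could be tested across the 4 pools with limma, in a fit to 27061 probe sets, those with a mean signal no lower than the 40th percentile. Foxi1 was below this filter, so 6 of the 7 genes were tested. The genotype effect passed a Benjamini-Hochberg adjusted p of 0.05 for 0.0% of probe sets, and for 0 of the 6 genes. At an unadjusted p under 0.05 there were 1045 probe sets and 1 of the 6 genes, Rhbg, with a log2 effect of -0.77, a standard error of 0.26 and an adjusted p of 1.00 by limma. When all probe sets were tested, Foxi1 had a genotype effect of -0.97 with a standard error of 0.24 and an adjusted p of 1.00 by limma. This fit assumes the same genotype effect at both stages, from which the values above depart. The stage effect was higher at E18.5 for 3.42% of probe sets and lower for 5.2%. Of the 6 genes Tfcp2l1 passed, with a log2 effect of 1.55, a standard error of 0.28 and an adjusted p of 0.0398 by limma. It no longer passed without E14.5 mutant array 1 or without E18.5 control array 2, with 0 of the genes called in either fit.

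Some but not most of the other genes of intercalated cells met the criteria at E18.5. Of 23 listed, 22 were measured and 14 of these reached the minimum signal in at least 1 pool. By the criteria 3 were lower in the E18.5 mutant kidney than in the E18.5 control kidney, against 2.23% of all named genes. The criteria called 1 higher, against 0.165% of all named genes. The median log2 ratio of the list was -0.35. Atp6v1b1 read 74.2 and 63.5 on the E18.5 mutant arrays, against 334 and 352 on the E18.5 control arrays, a log2 ratio of -2.32. Car12, a membrane-bound carbonic anhydrase, read 232 and 274 on the mutant arrays, against 1118 and 1068 on the control arrays, a log2 ratio of -2.11. The mutant signal of Atp6v1b1 was below the minimum, and held at that minimum the gene was at least 1.85-fold lower. Car15, another membrane-bound carbonic anhydrase, was also lower, with a log2 ratio of -2.01, and is named after its values were seen. Car2, the cytosolic carbonic anhydrase of intercalated and other cells, read 1770 and 2750 on the mutant arrays, against 2512 and 3517 on the control arrays, and the pools overlapped. Slc26a7, a chloride and bicarbonate exchanger of type A cells, had a log2 ratio of 0.16 with overlapping arrays. The 1 gene that was higher was Slc12a2, a sodium, potassium and chloride cotransporter, by a probe set other than its brightest, and the brightest gave a log2 ratio of 0.47.

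Some markers of other cells of the duct and tubule were also lower in the E18.5 mutant kidney, and most were not by the criteria. Over all named genes 2.23% were lower and 0.165% higher in this comparison. Aqp2, the water channel of principal cells, read 281 and 296 on the E18.5 mutant arrays, against 2659 and 2632 on the E18.5 control arrays, a log2 ratio of -3.20. Of 11 principal cell genes 3 were lower by the criteria and 0 higher, Aqp3 and Aqp4, further water channels, being the others by probe sets other than their brightest (the brightest of Aqp4 gave a log2 ratio of 0.18), with a median log2 ratio of -0.26 and summed signals of 5689 and 6074 on the mutant arrays, against 8896 and 8939 on the control arrays. Most of the difference between these sums lay in Aqp2, whose pool means were 289 in mutant and 2646 in control kidneys. Fxyd4, a sodium pump modulator of principal cells, had a log2 ratio of 0.47, so that not every gene of the list was lower. Of 11 measured genes of distal and connecting tubules 4 were lower, with a list median log2 ratio of -0.09 and 4 of the 11 above 0. S100g, a calcium-binding protein, and Kl, the klotho gene, were below the minimum signal in the mutant pool, and held at that minimum they were at least 20.8-fold and 9.70-fold lower. Slc12a3, the sodium chloride cotransporter of the distal tubule, named after its values were seen, was likewise at least 3.82-fold lower. Klk1, a kallikrein, was lower by a probe set other than its brightest, which gave a log2 ratio of 0.11 with overlapping arrays. The list summed to 6653 and 6113 on the mutant arrays, against 12515 and 12352 on the control arrays. Between pool means this sum differed by -6050, of which S100g, Kl and Slc12a3 gave -6085 and the other 8 genes 34.6.

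Of the 14 measured genes of the ureteric epithelium 2 were higher by the criteria and 0 lower, against 0.165% and 2.23% of all named genes. Their median log2 ratio was 0.14. The 2 were Ret, the receptor of the bud tips, and Sox9, a transcription factor also found there, each by a probe set other than its brightest, and they are named after their values were seen. Krt19, a keratin of duct epithelium, read 661 and 840 on the E18.5 mutant arrays, against 393 and 430 on the E18.5 control arrays. Emx2, a homeobox gene of the ureteric bud, read 488 and 548 on the mutant arrays, against 762 and 755 on the control arrays, and 5 of the 14 genes had a log2 ratio below 0, Cdh1 at -0.23 and Krt8 at -0.20 among them. The list summed to 11828 and 12774 on the mutant arrays, against 11800 and 11362 on the control arrays, while the 7 members summed to 2773 and 2780, against 4962 and 4941. The largest part of the members' difference came from Tfcp2l1, with pool means of 965 in mutant and 2104 in control kidneys. Of 8 urothelium genes none was higher or lower, and the median log2 ratio was -0.03. The part of each of these cell types in the members' values was not tested.

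**Figure D4:**
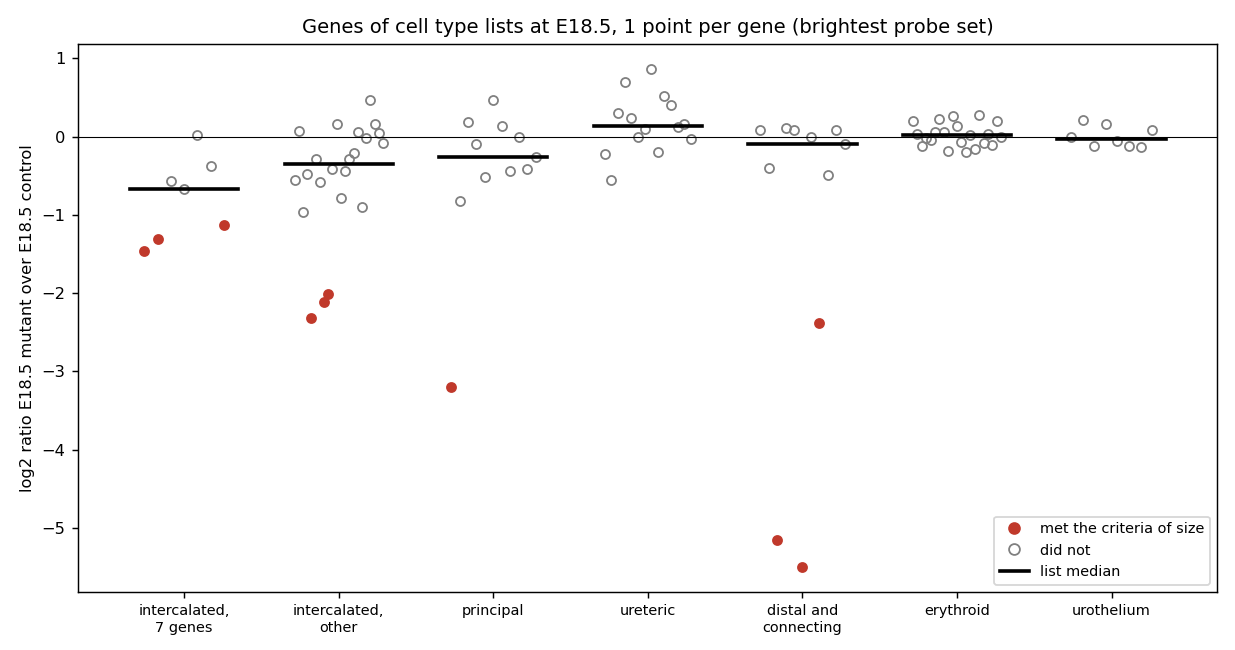
Log2 ratio of E18.5 mutant over E18.5 control signal for each gene of 7 lists, with 1 point for a gene, filled where its brightest probe set met the criteria of size, with a bar at the list median. The intercalated cell genes had medians of -0.66 and -0.35, the ureteric list one of 0.14 and the erythroid list one of 0.02.

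The families of the members were counted against the 2.23% of named genes that were lower at E18.5, with no test. In the CP2 and grainyhead family Tfcp2l1 was the 1 gene of 6 that was lower, and Grhl2, a regulator of epithelial cells, had a log2 ratio of -0.02, Ubp1 one of 0.01 and Tfcp2 one of 0.25. In the Rh family Rhbg was the 1 gene of 4 that was lower, and the red cell members Rhag and Rhd had log2 ratios of 0.27 and -0.08. Rhag did not reach the minimum signal in any pool. Of 10 measured genes of the Slc26 family none met the criteria by the probe sets annotated to it alone. Slc26a1, a sulfate transporter, had a log2 ratio of -0.82 at signals below the minimum. The study lists Slc26a1 among its genes most upregulated in E18.5 control over mutant kidneys, a far larger change than was read here. The probe set behind the study's value was not identified, so Slc26a1 is not settled by this reading. Of 9 measured Slc4 genes 1 was lower, Slc4a4, by a probe set other than its brightest. Foxi1 was the 1 gene of the 3 Foxi genes that was measured.

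The genes with the most similar pattern over the 4 pools were found from the root mean square distance between log2 pool means, each centred on its own mean over the pools, among 13914 other genes. For Foxi1 they were Gnai1, a G protein subunit, Eaf2 and Tmem178, at distances of 0.037, 0.068 and 0.075, and Rhbg came 19th with 0.136. For Rhbg they were Mcur1, Lzts3 and Akr1c19, at distances of 0.016, 0.031 and 0.036, and Foxi1 came 35th. For Tfcp2l1 they were Adgrg1, Cystm1 and Manba, at distances of 0.047, 0.072 and 0.077, and the nearest member, Rhbg, came 121st. Slc4a1 was the farthest member from each of these 3 genes. With 4 pools many genes come this close to one another, and the distance is a description only.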

How the data were processed

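Pooled whole kidney RNA was hybridised to 8 Affymetrix arrays of the mouse genome. The deposited values are linear signal intensities, 1 per probe set, which per the study's methods the authors scaled in Microarray Suite and normalized between arrays by the invariant-set method of dChip. The array medians are not those the methods give after normalization, for a reason not known, so the exact scale is unsettled. Present calls were not used here and were replaced by the minimum signal. Of 45101 probe sets the platform annotation, updated to current symbols, gave 34958 a single gene, 932 several and 9211 none. The probe set with the highest mean signal gave the values of a gene, and any of its probe sets could give a call. Levels were compared between probe sets only to choose the brightest of a gene or genes to name, and in the summed signals of lists, where bright probe sets weigh most. Ratios were taken between arithmetic means of duplicate arrays. limma 3.58.1 in R 4.3.3 was fitted to the mean log2 of signal plus 1 of each pool, with additive terms for genotype and stage, and had 1 residual and 3.91 prior degrees of freedom. The remaining work was done in Python 3.11.15 (pandas 2.3.3, numpy 2.4.6, matplotlib 3.10.9). Steps were tested on simulated data.

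Members and lists were chosen with earlier results of these data known. Genes named from a list were taken from the 4 with the highest signal and the 2 highest and 2 lowest E18.5 ratios of mutant over control, or from any measured gene of a family, and not all of these are named. For each member past the criteria, the 3 genes of most similar pattern were named. Alternatives were a minimum signal at the 50th percentile or none, scaling of arrays to quantiles or to the median, calls by the brightest probe set alone, geometric means, an offset of 50 units, dropping the criterion on duplicates, leaving out 1 array at a time, and for limma a pseudocount of 50, all probe sets, and the 8 arrays with pool as a random term, with and without the array number.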

Additional observations from a re-analysis of the deposited data

Results flagged for a closer look

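Rhcg had a mutant over control ratio that ran opposite ways at the 2 stages on every pairing of arrays. At E18.5 both mutant arrays were below both control arrays, and at E14.5 both were above. The lowest pairing at E14.5 had a ratio of only 1.01, while duplicate arrays of a pool differed by up to 1.14-fold. The share of all named genes with such a reversal was not counted. The log2 ratio at E18.5 minus that at E14.5 was -0.71. The difference was not tested.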

How the results depend on the processing

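The counts of members higher or lower between genotypes were the same under every alternative run, 3 lower at E18.5 and 0 at E14.5, and no call of a member turned its direction. Members higher at the later stage in mutant kidneys numbered 0 as reported, and 1 after quantile normalization, which was Tfcp2l1. Leaving out 1 array gave 0 to 1, the 1 without E18.5 mutant array 1. The stage effect tested with limma called 1 of the genes as reported, 2 with the 8 arrays and pool as a random term, and 2 with the array number added as a replicate block. The genotype effect of all probe sets, 0 higher and 0 lower as reported, became 22 higher and 49 lower with the 8 arrays, 1 and 11 with the block, and 1 and 44 without E18.5 mutant array 2. Leaving out 1 array gave 0 to 2 for the stage effect, with 2 without E18.5 mutant array 2. The array numbers did not pair the pools with 1 sign. Array 1 minus array 2 correlated across probe sets by 0.40 between the E18.5 pools and 0.42 between E14.5 control and E18.5 mutant. Between the control pools the correlation was 0.08. E14.5 mutant correlated by -0.28 with E14.5 control, -0.45 with E18.5 control and -0.28 with E18.5 mutant. Whether arrays of different pools shared a batch was not tested. In the fits to 8 arrays the consensus correlation within pools was -0.045 without and 0.024 with the block, so duplicates of 1 RNA counted nearly as independent samples and these calls measure technical spread. The cause of the other shifts was not tested. Over all named genes, the count higher in the E18.5 mutant kidney was 30 as reported and 14 to 101 under the alternatives, and at E14.5 the count lower was 22 and 13 to 36 and the count higher 1 and 0 to 4. Genes higher at the later stage in mutant kidneys were 245 and 155 to 384, and genes lower 272 and 135 to 371, and in control kidneys genes lower were 535 and 220 to 709. Probe sets with a stage effect by limma were 926 higher and 1406 lower as reported, and 4623 and 4203 with the 8 arrays. Of the 11 probe sets 4 never reached the minimum signal, and 1 pool for each condition limits all comparisons.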
